A study of Saccharomyces cerevisiae with 56 samples.

Results

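The measurements described here are those of the third PDZ domain of the synaptic scaffold protein PSD-95 in the construct that carries both of its extensions (NC), scored for binding and for abundance. Variants were matched between both assays by their amino acid sequence. All single and double missense variants with a usable score in both assays were kept, whatever the score. This gave 43645 variants, 1165 single and 42480 double substitutions, of 384696 entries in the whole table. A further 3658 NC missense variants had a score in binding alone and 2387 in abundance alone, and these were not used. The block that was mutated covers 66 residues of PSD-95, numbered here by the full-length protein, and 62 of them had a single substitution in both assays. Of 1254 possible single substitutions, 1165 were measured in both.

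Both assays were growth competitions of plasmid libraries in the yeast strain BY4742. The groups used were NC in bindingPCA and NC in abundancePCA, with 3 input and 3 output libraries each (12 of 56 libraries in the series), and for 1 comparison the same assays in the domain alone (PDZ3) and with either extension alone (N or C). Per the labels, transformed cells grew in selective medium to an optical density of 1.6, which gave the input. They then grew for 5 generations in 400 mL of medium with methotrexate from a density of 0.05, which gave the output. The sources used here give neither the binding partner nor the sequences of the extensions. All constructs were expressed from plasmids in yeast, outside the neuronal cells in which PSD-95 is found.

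PDZ domains are small modules that hold the free carboxy terminus of a partner protein in a groove between their strand 2 and helix 2. The carboxylate of the partner is bound by a loop with the GLGF motif, between strands 1 and 2. In a protein-fragment complementation assay (PCA), fragments of the enzyme dihydrofolate reductase must meet for yeast to grow in methotrexate. In bindingPCA the fragments sit on the domain and on its partner, and growth reports the amount of complex. In abundancePCA the domain carries 1 fragment and the other is expressed freely in excess, and growth reports the amount of soluble domain. A domain that is less abundant also forms less complex, so binding falls with abundance, and the difference between the assays is the quantity of interest here.

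The deposited score of each variant is relative to the wild type, with the authors' standard error. The cultures were merged by the authors into 1 value, so the errors are theirs, and the number of reads behind a value is unknown. The labels number the 3 libraries of a kind as biological replicates, whose own values were not seen here. The assays differ in range: the median single nonsense variant of NC scored -0.891 in binding and -1.07 in abundance. Scores were therefore put on a common scale, with 0 for the wild type and -1 for the median of the single nonsense variants. The difference D is the scaled binding score minus the scaled abundance score, and a negative D means that a variant lost more of the range in binding. Growth rates on the deposited scale were 0.153 in binding and 0.137 in abundance for the wild type. The nonsense median corresponded to 0.00323 in binding and 0.00130 in abundance, so both scales ran from nearly no growth to wild-type growth.

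Differences were tested with two-sided normal tests on the authors' errors of both scores, of both wild types and of both scales, adjusted by Benjamini-Hochberg, and called at 0.05. Synonymous variants gave a check on these errors. Of them, 28 of 284 lay above the wild type and 1 below it in binding (10.2% past the threshold), and 16 of 272 lay above and 0 below in abundance (5.88%). The first 10 residues held 8 nonsense variants, with a median scaled score of -1.02 in binding and -0.743 in abundance, so early nonsense variants kept more signal in abundance. Nonsense variants of the second part of the block had a wider spread than their errors, 2.96 times in binding and 2.57 times in abundance.

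Single substitutions lost more in binding than in abundance. Their mean scaled score was -0.165 ± 0.0046 in binding and -0.0809 ± 0.0031 in abundance (SE from the errors of scores, wild type and scale, 1165 substitutions). D was lower than 0 past the threshold in 452 of them (38.8%) and higher in 195 (16.7%). With errors widened by the spread of nonsense variants, 248 were lower and 43 higher. Among single substitutions, 149 (12.8%) scored under -0.5 in binding and 63 (5.41%) in abundance, and 47 did so in both. Against the wild type of the same assay, 56.6% of single substitutions were lower in binding and 39.6% were lower in abundance. The median error of unscaled single scores was 0.00855 in binding and 0.0165 in abundance, so smaller losses passed in binding. The shares above the wild type were 12.9% in binding and 8.33% in abundance. These are less certain, because the synonymous variants past the threshold also lay almost all above the wild type.

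The joint counts show where the calls of both assays parted. Errors were larger in abundance, so a loss that passed in binding could miss the threshold in abundance. Both binding and abundance were lower in 384 single substitutions, with medians of -0.212 in binding and -0.0882 in abundance. Binding was lower and abundance was not in 275, and abundance was lower and binding was not in 77. In 260 of the 275, abundance did not pass the test, and their medians were -0.139 in binding and -0.00754 in abundance. Neither score passed the test in 252. Scores in binding and abundance had a Pearson correlation of 0.551 and a Spearman correlation of 0.414 over the 1165 substitutions, which share their sites and their scale.

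**Figure D1:**
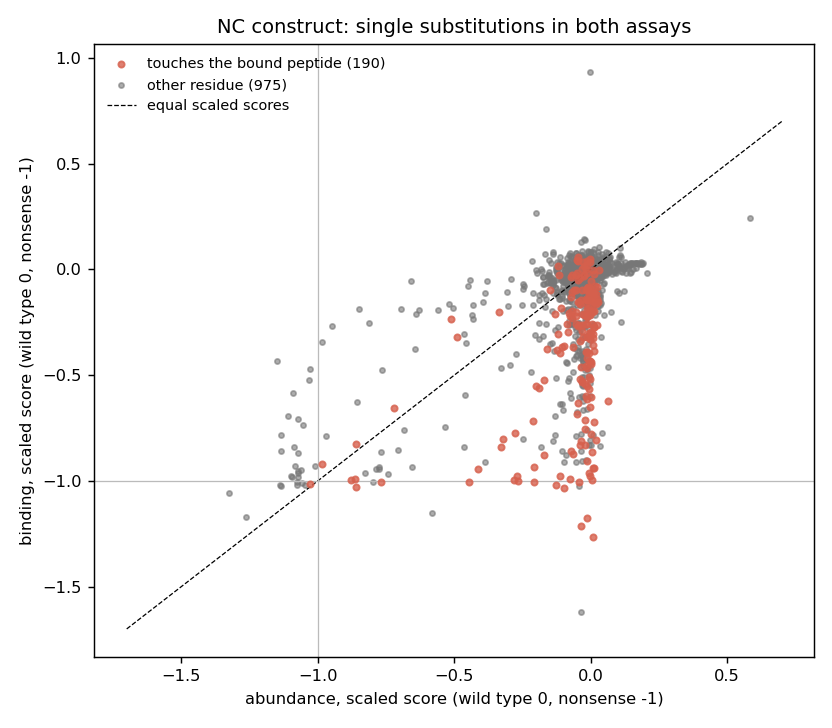
Scaled binding score (vertical axis) against scaled abundance score (horizontal axis) of each of 1165 single substitutions in NC; red points are substitutions at the 10 residues that touch the bound peptide and grey points are the other residues. A column of points near 0 in abundance runs down to -1 and below in binding, and a smaller set lies above the dashed line of equal scores at low abundance.

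Of the 906 single substitutions with abundance within 0.1 of the wild type, 72 scored under -0.5 in binding. These 72 came from 15 residues. G329 and H372 gave 14 each, G330 and I327 gave 8 each, L323 gave 7 and V328 gave 6. Residues that touch the bound peptide held 38 of the 72, and the glycines G329 and G330, which follow them in strand 2, held most of the others. In the opposite corner, 63 substitutions scored under -0.5 in abundance and 16 of these scored at or above -0.5 in binding. V362 gave 4 of the 16, L353 gave 3 and I316 gave 2. I359 gave the most of the 63, with 12, but only 1 of its substitutions was among the 16.

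By residue, D averaged over single substitutions was lower than 0 at 29 of 62 positions (46.8%) and higher at 22 (35.5%), and 11 did not pass the test. The median position had D = -0.0156, with -0.0762 in binding and -0.0414 in abundance. The errors of a position mean are small because many substitutions are averaged. They hold the errors of the scores, wild types and scales, and not the spread between substitutions. The SD of D between substitutions was 0.273 at G329, 0.180 at N326 and 0.331 at V362. A call at a position therefore concerns the mean of its measured substitutions, which can differ in sign. With errors multiplied by 2, 25 positions were lower and 11 higher, so the count of higher positions was the less stable of both. Set against a monotone curve of binding on abundance in place of equal scores, 16 positions were lower and 40 higher, and 287 single substitutions were lower and 629 higher. That curve runs below the line of equal scores near wild-type abundance, so a position near 0 on both scales moves up against it. Against that curve R318 was at -0.0541, A376 at -0.137 and A347 at -0.209, each still lower, and G322 was at 0.184, G335 at 0.187 and G364 at 0.183.

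**Figure D2:**
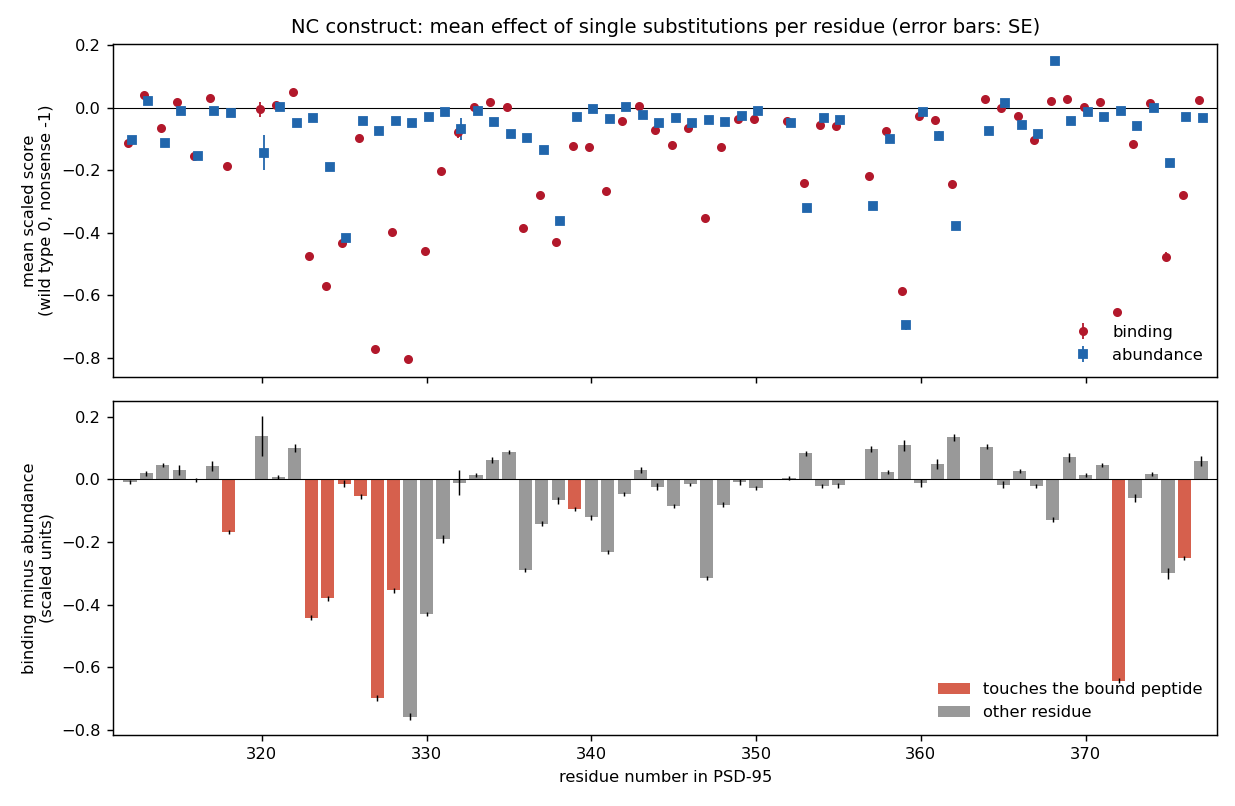
Mean scaled score of the single substitutions at each residue in NC (upper panel; binding as circles, abundance as squares) and their difference D (lower panel; red bars touch the bound peptide, grey bars are other residues), with standard errors. The deepest bars lie at G329 (-0.757), I327 (-0.699) and H372 (-0.643), and the bars above 0 reach at most 0.138.

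Strand 2 forms 1 edge of the groove and pairs with the bound peptide, and it had the lowest differences. All 6 of its positions were lower, against 46.8% of all 62 positions, with a median D of -0.392. Of its 114 substitutions 95 (83.3%) were lower, against 38.8% of all substitutions. G329 averaged -0.805 in binding and -0.0475 in abundance, D = -0.757 ± 0.0099 (SE, 19 substitutions). All 19 substitutions there were lower, from G329C at -1.58 to G329S at -0.168. I327, whose side chain helps to line the pocket for the last side chain of the partner, averaged -0.771 in binding and -0.0727 in abundance, D = -0.699 ± 0.0086. Its mildest substitution was I327F (-0.168) and its lowest was I327H (-0.998). At these 2 residues mean abundance stayed near the wild type while mean binding lost most of its range. Abundance was still lower than the wild type in 10 of 19 substitutions of G329, down to -0.183. At I327 it was lower in 9 of 19, down to -0.280.

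G330 and V328 followed in the same strand. G330 averaged -0.459 in binding and -0.0296 in abundance, with D = -0.429 ± 0.0068, and its differences ran from -0.634 (G330K) to -0.0464 (G330P). Proline, which breaks strands, was thus the mildest change at G330. V328 averaged -0.395 in binding and -0.0414 in abundance, with D = -0.354 ± 0.0085. V328I was at 0.0364, which did not pass the test, while V328D was at -0.894. V328E was lower than the wild type in binding (-0.624) and higher in abundance (0.0618), 1 of 15 single substitutions with that pair of calls. E331, at the end of the strand, had D = -0.190 ± 0.0125, from -0.201 in binding and -0.0118 in abundance.

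N326 was the exception within strand 2 in its size and its stability. Its mean was -0.0951 in binding and -0.0403 in abundance, D = -0.0548 ± 0.0071. Of its 19 substitutions 7 were lower and 6 higher, from N326P (-0.507) to N326W (0.135). The median over substitutions was 0.0287, of the opposite sign, and against the monotone curve the mean was 0.0519. The direction at N326 therefore depended on how substitutions were summarised.

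The carboxylate-binding loop was mixed. Of 7 tested positions 3 were lower and 2 higher, near the shares over all 62 positions (46.8% lower and 35.5% higher). L323 and F325 of the GLGF motif both line the pocket of the last side chain of the partner, and they differed from each other. L323 averaged -0.475 in binding and -0.0338 in abundance, with D = -0.441 ± 0.0074. L323P (-1.18) and L323D (-0.962) were its lowest, and L323W (0.0445) its highest. F325 averaged -0.432 in binding and -0.417 in abundance, D = -0.0147 ± 0.0110, which did not pass the test. Substitutions of F325 thus lowered both scores, and F325R was its lowest in both. On unscaled scores the difference at F325 was 0.0633, of the opposite sign and past the threshold.

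The 2 glycines of the motif went opposite ways. G324, whose backbone faces the carboxylate, averaged -0.568 in binding and -0.189 in abundance, D = -0.379 ± 0.0083. All 19 of its substitutions were lower than the wild type in both assays, and G324P had the lowest difference (-0.915). G322 averaged 0.0510 in binding and -0.0496 in abundance, D = 0.101 ± 0.0126. At G322 12 substitutions were higher than the wild type in binding and 5 were lower in abundance. These 5 (G322Y, G322F, G322R, G322I and G322V) were both lower in abundance and higher in binding. G322Y had the widest gap, with 0.0734 in binding and -0.166 in abundance.

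R318, a loop residue whose side chain lies near the carboxylate of the partner, averaged -0.185 in binding and -0.0158 in abundance, D = -0.169 ± 0.0065. In it 18 of 19 substitutions were lower, from R318W (-0.302) to R318K (-0.0024), so the change that keeps the positive charge was the mildest. S320 had the highest mean of all, 0.138 ± 0.0625, from -0.0049 in binding and -0.143 in abundance. It rests on 10 substitutions, of which none passed the test alone. The call at S320 was lost with errors multiplied by 2. T321 was among the 4 positions nearest to 0, with 0.0089 in binding and 0.0016 in abundance.

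Helix 2 forms the other edge of the groove. Of its 7 positions 4 were lower and 3 higher, with a median D of -0.0588. These counts are near the shares over all 62 positions (46.8% lower and 35.5% higher). H372, the helix residue that meets the hydroxyl side chain of class I ligands, averaged -0.653 in binding and -0.0095 in abundance, D = -0.643 ± 0.0079. All 19 of its substitutions were lower in D, from H372N (-1.27) to H372Q (-0.206). In abundance 15 of these 19 did not fall below the wild type. A375 averaged -0.476 in binding and -0.176 in abundance, D = -0.2996 ± 0.0179, with aromatic residues lowest (A375W at -0.869) and A375D highest (0.232). The difference at A375D did not pass the test. A375L scored -0.463 in binding and 0.0632 in abundance. A376 averaged -0.279 in binding and -0.0279 in abundance, D = -0.251 ± 0.0065, from A376D (-0.535) to A376V (0.0341). The lower positions of helix 2 lay in adjacent pairs, H372 with E373 and A375 with A376. S371, Q374 and I377 lay on either side of these pairs, with D slightly higher than 0, at 0.0468, 0.0167 and 0.0588.

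Strand 3 lies next to strand 2, and all 7 of its positions were lower, against 46.8% of all 62. Its median D was -0.121. I336 had D = -0.289 ± 0.0066, from -0.386 in binding and -0.0969 in abundance, and I341 had D = -0.231 ± 0.0065, from -0.266 in binding and -0.0351 in abundance. S339, which touches the peptide from this strand, averaged -0.121 in binding and -0.0278 in abundance, D = -0.0937 ± 0.0062. It ran from S339E (-0.299) to S339I (0.0912), and against the monotone curve its mean was 0.00830. F340 showed a large range, with F340P at -0.821 and F340Y at 0.118, of which F340Y did not pass the test. I338 lost in both assays, with -0.429 in binding and -0.362 in abundance.

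In all, 9 of the 10 residues that touch the peptide were lower and 0 were higher, with a median D of -0.302 against -0.0156 over all 62 positions. F325 was the one that did not pass. Of their 190 substitutions, 155 were lower (81.6%) and 16 higher (8.42%). The background is 46.8% of positions and 38.8% of substitutions lower.

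Some lower positions lay away from the groove. A347, near helix 1, averaged -0.352 in binding and -0.0373 in abundance, D = -0.315 ± 0.0062. In it 17 of 19 substitutions were lower, from A347E (-0.537) to A347T (0.0253). R368, before helix 2, had a difference of another make: its substitutions averaged 0.0217 in binding and 0.150 in abundance, D = -0.129 ± 0.0075. Of 19 substitutions of R368, 18 were higher than the wild type in abundance and 12 in binding. The low D at R368 thus comes from a gain in abundance that binding showed only in small part. L367 was mixed, with means of -0.104 in binding and -0.0829 in abundance. It had 12 substitutions higher and 5 lower in abundance, and 3 higher and 8 lower in binding. Its mean D of -0.0207 ± 0.0070 joined values from L367W (-0.360) to L367D (0.419). L367W scored -0.248 in binding and 0.112 in abundance.

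**Figure D3:**
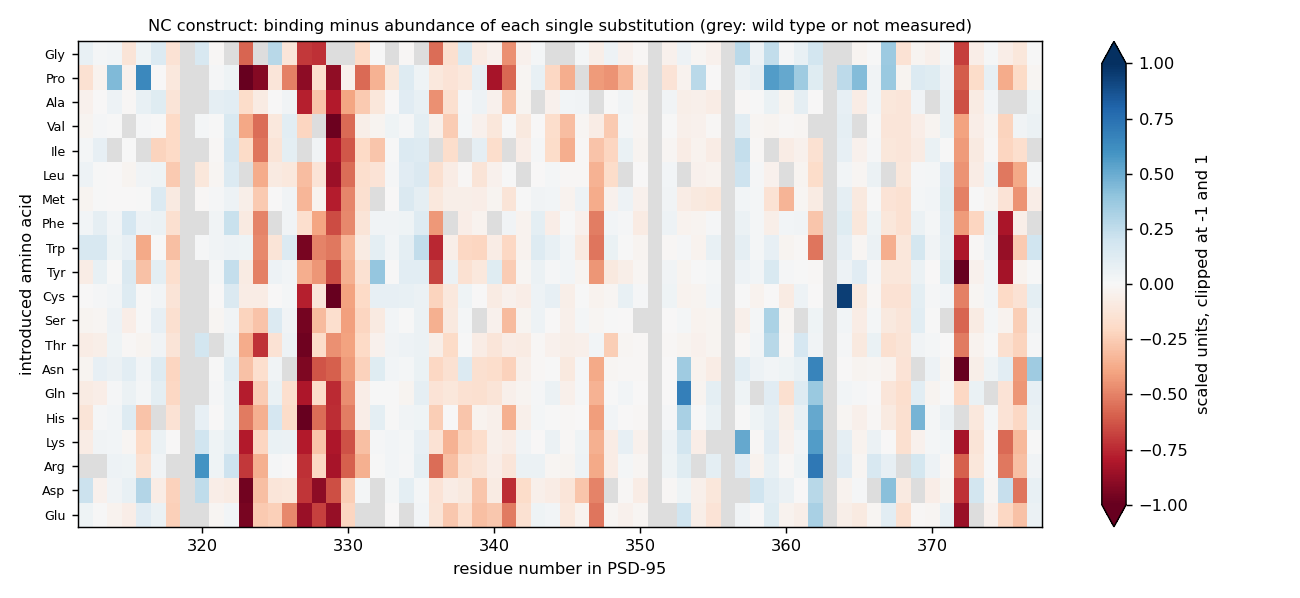
D (scaled binding minus scaled abundance) of each single substitution in NC by residue number (horizontal axis) and introduced amino acid (vertical axis); red is below 0, blue above 0, grey is the wild type or not measured, and the colours are clipped at -1 and 1. Whole columns are red at G329, I327 and H372, while the darker blue cells at V362 and L353 are polar or charged introduced residues.

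The positions where D was higher were spread over the block, with 6 of the 22 around strand 4. There, 6 of 9 tested positions were higher and 2 lower, against 35.5% higher and 46.8% lower over all 62. Before helix 2, 4 of 7 were higher. In the loop between strands 2 and 3 it was 3 of 4, and in strand 1 it was 3 of 6. V362 averaged -0.244 in binding and -0.378 in abundance, D = 0.134 ± 0.0121. V362R (0.713), V362N (0.661) and V362K (0.557) were among the 8 highest single substitutions, while V362W was on the low side (-0.536). V362R scored -0.435 in binding and -1.15 in abundance. With the median over substitutions D was 0.0443 at V362, still past the threshold. I359 averaged -0.587 in binding and -0.696 in abundance, D = 0.109 ± 0.0169, and its highest was I359P (0.558). D at I359 was 0.224 on unscaled scores, and against the monotone curve it was 0.0178 and no longer passed.

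D357 averaged -0.217 in binding and -0.313 in abundance, D = 0.0962 ± 0.0086, with D357K at 0.509 and D357S at -0.0502, and a median over substitutions of 0.0566. L353 averaged -0.239 in binding and -0.322 in abundance, D = 0.0828 ± 0.0090. At L353, 9 substitutions were lower and 7 higher, from L353M (-0.0753) to L353Q (0.681), and with the median over substitutions the value fell to 0.0091 and did not pass. V362, I359, D357 and L353 held 29 of the 63 single substitutions under -0.5 in abundance. F325 and I338, where D was not higher, held 8 each. G335, in the loop between strands 2 and 3, averaged 0.0045 in binding and -0.0825 in abundance, D = 0.0870 ± 0.0071, with 14 of 19 substitutions higher and 0 lower.

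G364 averaged 0.0292 in binding and -0.0750 in abundance, D = 0.104 ± 0.0089. This mean depends on G364C, which scored 0.935 ± 0.0721 in binding and -0.0039 ± 0.0191 in abundance (authors' errors), the highest D of all single substitutions with an SE under 0.1. Without substitutions outside the range from -1.1 to 0.5, a setting added after the data were seen, D at G364 was 0.0578. The value of G364C was not repeated in double substitutions. Its 37 double substitutions had a median binding score of -0.0496 and a highest of 0.0302, and 0 lay above 0.5. The 648 doubles at the same pairs of residues with another substitution at G364 had a median of -0.0605.

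Doubles give a second look at the other extreme values too. G329C scored -1.62 ± 0.0777 in binding, below the nonsense median, and -0.0361 ± 0.0123 in abundance. Its 51 doubles ranged from -1.16 to -0.398 in binding, with a median of -0.858, so all of them scored above the single substitution. The 913 comparable doubles with another substitution at G329 had a median of -0.852. H372N scored -1.26 in binding, and its 107 doubles had a median of -0.719. H372Y scored -1.18, with a median of -0.918 over 101 doubles, and L323P scored -1.21, with a median of -0.936 over 102. The scores of I327T (-0.977) and I327H (-0.994) and their doubles lay closer, with medians of -1.01 over 140 doubles and -1.0004 over 106.

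At 4 positions D was nearest to 0, at I316, E352, T321 and L349. I316 averaged -0.154 in binding and -0.153 in abundance, D = -0.0011 ± 0.0067. This mean of almost 0 hid opposite substitutions, with I316P at 0.645 and I316W at -0.383. I316P scored -0.341 in binding and -0.986 in abundance. E352 had D = 0.0051 ± 0.0058 and L349 had D = -0.0078 ± 0.0089. The sign of the mean at I316 and at L349 turned with the median over substitutions and against the monotone curve.

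By the residue introduced, proline had the lowest means, -0.389 in binding and -0.283 in abundance over 60 positions. Charged residues followed, with -0.248 in binding and -0.144 in abundance over 231 substitutions. Cysteine was mildest, at -0.0717 in binding and -0.0187 in abundance over 61. Aliphatic or aromatic residues averaged -0.121 in binding and -0.0389 in abundance over 525, and 44 of these scored under -0.5 in binding against 4 in abundance. The mean D was negative in each of these classes, from -0.106 for proline to -0.0529 for cysteine.

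Substitutions that moved in opposite directions against the wild type were few. In 15 single substitutions binding was lower and abundance higher, and in 21 binding was higher and abundance lower. The second set had 5 at G322, 3 at E334 and 2 at N369. N369H had the widest gap of these, with 0.266 in binding and -0.201 in abundance. Both sets depend on calls above the wild type, which are the less certain ones. The median gain in binding in the second set was 0.0453.

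Double substitutions covered 142 of 2145 pairs of residues, with a median of 314 variants per pair, so they do not sample all pairs. Their median was -0.358 in binding and -0.165 in abundance. D was lower in 9549 of 42480 (22.5%) and higher in 2120 (4.99%). The median SE of D was 0.136 for doubles against 0.0194 for singles, so smaller differences passed in singles. The doubles past the threshold fell to 2645 lower and 150 higher with errors multiplied by 2. With errors widened by the spread of nonsense variants, 762 were lower and 26 higher.

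The score of doubles followed the number of residues that touch the peptide. With 0 such residues the median was -0.183 in binding and -0.141 in abundance (27092 doubles). With 1, it was -0.690 in binding and -0.220 in abundance (12922 doubles). With 2, it was -0.782 in binding and -0.212 in abundance (2466 doubles). D was lower in 14.4% with 0, 36.1% with 1 and 39.8% with 2, and higher in 6.89%, 1.62% and 1.78%. The median in binding thus moved down far more than that in abundance between 0 and 1 such residue.

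**Figure D4:**
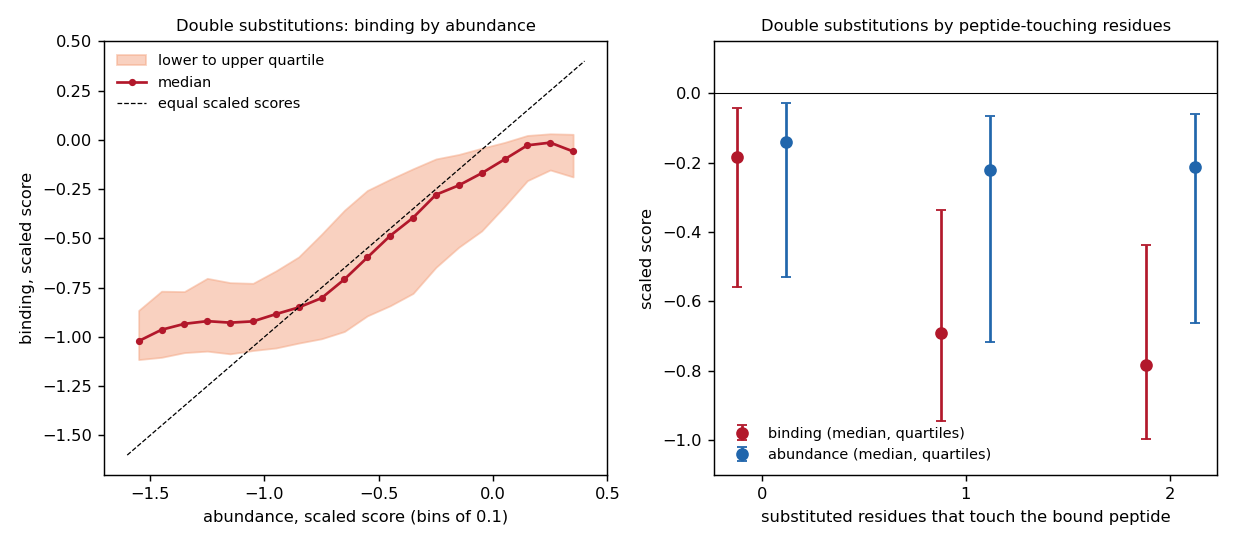
Left, median and quartiles of the scaled binding score of double substitutions in bins of 0.1 of the scaled abundance score, with the dashed line of equal scores. Right, medians and quartiles of binding and abundance by the number of substituted residues that touch the bound peptide: binding falls to -0.690 with 1 and -0.782 with 2 while abundance stays near -0.2.

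Along abundance, the median binding of doubles declined steadily and then levelled. It was -0.169 for abundance between -0.1 and 0 (9663 doubles), -0.487 between -0.5 and -0.4 (1552), and -0.850 between -0.9 and -0.8 (1715). Below -1 in abundance the medians stayed between -0.920 and -1.02. Even within 0.1 below wild-type abundance, 22.6% of doubles scored under -0.5 in binding. The median binding of doubles with abundance below -1 thus lay near the score of nonsense variants. It was above their abundance, but these bins were picked by the abundance score. Error in that score enters the comparison, so no conclusion is drawn from it.

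Doubles were ranked only among those past the threshold with an SE under 0.1, which is below their median SE of 0.136. Within this low-error set, the doubles with the lowest D had near wild-type abundance. Each of the 6 lowest carried a substitution that alone scored under -0.8 in binding. V328S/G329E scored -1.09 in binding and 0.0093 in abundance, D = -1.103 ± 0.0863. I327T/I336L scored -1.03 in binding and 0.0517 in abundance, D = -1.08 ± 0.0924, and I327T/H372A had D = -1.06 ± 0.0815. F340P/L342G, in strand 3, scored -1.11 in binding and -0.0344 in abundance. Alone, I327T scored -0.977, G329E -0.907 and F340P -0.858 in binding.

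The highest doubles all lay between R354 and A370 and had abundance near -1. V365R/L367G scored -0.345 in binding and -1.09 in abundance, D = 0.745 ± 0.0930. L367G/A370S scored -0.211 in binding and -0.953 in abundance, and L367G alone scored -0.192 in binding and -0.558 in abundance. D366V/L367S scored -0.261 in binding and -1.001 in abundance, while its single substitutions scored -0.0355 and 0.0866 in abundance. Q358G/L360R behaved alike, with -0.217 in binding and -0.908 in abundance, while its single substitutions scored -0.0659 and 0.0154 in abundance.

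A position's D from singles was set against its marginal value in doubles, which is the score of a double minus that of its partner substitution alone, averaged. Over 62 positions the Pearson correlation was 0.838 and the Spearman correlation 0.829. Both use the single scores, and positions share their doubles. The sign was the same at 50 of 62 positions, at 22 of the 22 higher positions and at 22 of the 29 lower ones. For the plain mean of D over a position's doubles, which also holds the partner's effect, the correlations were 0.810 (Pearson) and 0.704 (Spearman). Its sign was that of the singles at 48 of 62 positions, at 14 of the 22 higher ones and at 26 of the 29 lower ones. G322, whose doubles all had a partner at a residue that touches the peptide, was at -0.288 by the plain mean and 0.151 by the marginal value. By the marginal value H372 was at -0.356, G324 at -0.291 and G329 at -0.245, and by the plain mean at -0.598, -0.350 and -0.657. I336 had a marginal value of 0.0149 against -0.289 in singles. F325 had a marginal value of 0.120, with -0.389 in binding and -0.509 in abundance. R312, which did not pass in singles (-0.0081), had a marginal value of 0.211, from -0.251 in binding and -0.462 in abundance. The plain means were below 0 at these 3 positions, at -0.204 (I336), -0.0719 (F325) and -0.0344 (R312).

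Departures from the sum of both single scores were computed for 42329 doubles. The median departure was -0.0234 in binding and -0.0645 in abundance, so doubles fell further below the sum in abundance. The departure was lower in binding than in abundance in 908 doubles (2.15%) and higher in 4196 (9.91%). These counts fell to 23 lower and 370 higher with errors multiplied by 2, and to 0 lower (80 at an unadjusted p under 0.05 in the normal test) and 40 higher with errors widened by the spread of nonsense variants. Sums below the floor limit this comparison. In 6275 doubles with a binding sum at or under -1 the median departure in binding was 0.315. Among 35031 doubles with both sums above -1, a setting added after the data were seen, the medians were -0.0380 in binding and -0.0721 in abundance, with 2.04% lower and 6.72% higher. In 1038 doubles of substitutions that were each not past the test in either assay, 2 were lower and 11 higher.

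Among departures past the threshold with an SE under 0.1, the lowest included R318V/L323W and R318A/L323A. R318V/L323W scored -0.806 in binding against a sum of -0.217, and -0.0345 in abundance against a sum of -0.0621, a departure of -0.617 ± 0.0855. R318A/L323A scored -0.853 in binding against a sum of -0.328, with 0.0736 in abundance against -0.0154. In these pairs of the carboxylate-binding loop, the loss beyond the sum was in binding and not in abundance. E352L/G364C had the lowest value (-0.819 ± 0.0986), and its sum in binding of 0.915 holds the single score of G364C given above. D357G/H372V differed mainly in abundance, with -0.259 against a sum of -0.657.

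The highest departures with an SE under 0.1 were mostly pairs of G330 and I336. G330V/I336R scored -1.04 in binding against a sum of -1.40, which lies below the floor, and -1.08 in abundance against a sum of -0.280, a departure of 1.16 ± 0.0958. G330L/I336R had 1.14 ± 0.0874 and G330F/I336G had 1.13 ± 0.0931. In I316S/L323R the binding sum of -0.914 was above the floor: it scored -0.345 in binding, and -0.757 in abundance against a sum of -0.214, a departure of 1.11 ± 0.0780. These 4 doubles lost far more abundance than both single substitutions together.

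The difference between the assays in NC was then set against that in the other constructs, over 1122 single substitutions measured in all 8 sets and 60 positions with at least 10 of them. D in NC minus D in PDZ3 passed the threshold at 29 positions (48.3%), 13 lower and 16 higher in NC. D in NC minus D in N passed at 37 (61.7%), 19 lower and 18 higher. D in NC minus D in C passed at 36 (60%), 21 lower and 15 higher. With errors widened by the spread of nonsense variants, 3 lower and 1 higher remained against PDZ3. In that setting 6 lower and 10 higher remained against N, and 7 lower and 5 higher against C. These shares cannot be compared directly, because the SE of D differed between constructs. At H372 it was 0.0268 in PDZ3, 0.0157 in N and 0.0093 in C. The Pearson correlation of D across positions was 0.760 between NC and PDZ3, 0.847 between NC and N, and 0.947 between NC and C. The split depends on the scale, since unscaled scores gave 3 lower and 39 higher against PDZ3 and 5 lower and 43 higher against N. The growth rate gave 7 lower and 34 higher against C.

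I327 and G324 were lower in NC than in every other construct. I327 had D = -0.699 in NC, against -0.448 in C, -0.400 in N and -0.326 in PDZ3. Its abundance averaged -0.0727 in NC, against -0.369 in C, -0.463 in N and -0.554 in PDZ3, while its binding averaged -0.771 in NC, against -0.817, -0.863 and -0.880. The difference at I327 thus lay mainly in abundance. G324 had D = -0.379 in NC, against -0.228 in C, -0.0420 in N and 0.0621 in PDZ3. G324 averaged -0.189 in abundance in NC, against -0.524 in C, -0.905 in N and -1.03 in PDZ3. On unscaled scores the difference between constructs turned its sign at I327 against PDZ3 (0.0865) and N (0.254) and at G324 against N (0.286), and on growth rates at G324 against C (0.0104).

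**Figure D5:**
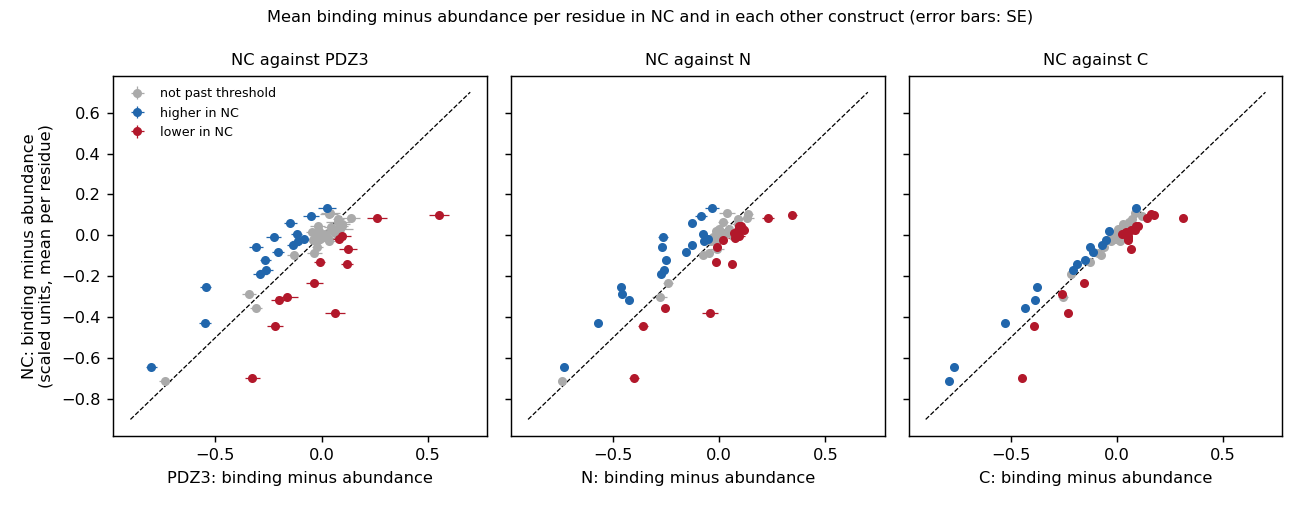
Mean D per residue in NC (vertical axis) against PDZ3, N and C (horizontal axes) over 60 positions, with standard errors and the dashed line of equal values; blue points are higher in NC, red points lower and grey points not past the threshold. Points lie closest to the line against C (Pearson correlation 0.947) and are most scattered against PDZ3 (0.760).

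A376, R312, E373 and E334 were higher in NC than in PDZ3 and N. Against C, A376 (-0.375 in C) and E373 (-0.126 in C) were also higher in NC. R312 (0.0082 in C) and E334 (0.0558 in C and 0.0616 in NC) did not pass against C. A376 had D = -0.251 in NC, against -0.464 in N and -0.546 in PDZ3, and its binding averaged -0.279 in NC, against -0.544 in N and -0.634 in PDZ3. R312 had D = -0.0081 in NC, against -0.264 in N and -0.226 in PDZ3. Its binding averaged -0.111 in NC, against -0.704 in N and -0.843 in PDZ3, and its abundance -0.103 in NC, against -0.440 in N and -0.617 in PDZ3. Substitutions of R312 were thus milder in both assays in NC, and more so in binding. E373 had D = -0.0588 in NC, against -0.267 in N and -0.309 in PDZ3. H372, where D was -0.643 in NC, had -0.766 in C.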

How the data were processed

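Variants of PSD-95 PDZ3 were measured by growth competition in yeast, with 3 input and 3 output libraries per construct and assay. The authors deposited 1 table with a fitness score, its error, a growth rate and its error per variant, construct and assay, all treated as scores here. Counts and values of single cultures are not in that table, so the depth is unknown, no counting interval can be given, and no count test could be run. The log base of the score is not stated. Of tools, the submitters' processing notes give cutadapt and FastQC; the step from reads to the score is not given in the sources used here. Within NC the growth rate was a straight line of the score, with departures of at most 0.00017 in binding and 0.0000232 in abundance.

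Variants marked as nonsense and entries with the placeholder error of 100 were left out. The last 2 letters of each sequence are not residues of the block. The wild type of NC had that placeholder, so its error was derived from that of its growth rate. Each assay was scaled to 0 at the wild type and to -1 at the median single nonsense variant. A position's value is the unweighted mean over its substitutions, with at least 10 of the 19 possible. Tests were two-sided normal tests with Benjamini-Hochberg adjustment over all 43645 variants, over the 62 positions, over the 60 positions of each contrast between constructs, or over the 42329 doubles, with a threshold of 0.05. Standard errors of position means treat the authors' errors as independent between substitutions and leave out the spread between substitutions. On simulated scores with the deposited errors and a shift of 0.3, 94% of shifted single and 26% of shifted double substitutions were recovered, with 0% and 0.0284% of the unshifted ones called. The simulated noise was drawn from the same errors that the test used. These rates therefore do not show how often calls are false where the deposited errors are too small. Python 3.11.15, numpy 2.4.6, pandas 2.3.3, scipy 1.17.1, scikit-learn 1.9.0 and matplotlib 3.10.9 were used.

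The members, the residue lists and the tests were chosen with earlier results of these data known. The strands, helices and residues that touch the peptide come from general knowledge of the domain's structure. Named positions were the 8 lowest and 8 highest in D past the threshold, the 10 residues that touch the peptide and the 4 nearest to 0, each with its lowest and highest substitution. Named single substitutions were the 8 lowest and 8 highest with an SE under 0.1. For doubles these were the 6 lowest and 6 highest in D and the 4 lowest and 4 highest departures, also with an SE under 0.1. Between constructs they were the 4 lowest and 4 highest per contrast. Other residues and substitutions (A375, I336, I341, E331, F340, I338, R368, L367, S371, Q374, I377, those of the opposite calls, and the doubles that carry a named single) were chosen after their values were seen. Scaling, zero point, errors, filters, the summary per position and the adjustment were varied, and the closing section gives the effect.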

Additional observations from a re-analysis of the deposited data

Results flagged for a closer look

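The difference between the assays (D, scaled binding minus scaled abundance) was itself tested between NC and each other construct, over the single substitutions shared by all sets. Results given here are the 4 lowest and 4 highest positions of each contrast, all past the threshold of 0.05 after adjustment over 60 positions. They are positions where the effect of a substitution on binding relative to abundance was not the same in NC as in another construct.

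Against PDZ3, NC was lower at G322 (-0.453), G324 (-0.441), I327 (-0.373) and F337 (-0.260). It was higher than PDZ3 at A376 (0.296), E373 (0.250), R312 (0.218) and E334 (0.209). At G322, D was 0.101 in NC and 0.554 in PDZ3, with an abundance of -0.0496 in NC and -0.485 in PDZ3.

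Against N, NC was lower at G324 (-0.337), I327 (-0.298), G322 (-0.244) and F337 (-0.200). It was higher than N at R312 (0.256), A376 (0.213), E373 (0.208) and E334 (0.190). At F337, D was -0.141 in NC and 0.0591 in N, with a binding score of -0.277 in NC and -0.0860 in N.

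Against C, NC was lower at I327 (-0.251), G335 (-0.226), G324 (-0.151) and I338 (-0.135). It was higher than C at A376 (0.124), H372 (0.123), G330 (0.0967) and G329 (0.0802). At G335, D was 0.0870 in NC and 0.313 in C, with an abundance of -0.0825 in NC and -0.426 in C. On other scales the sign turned at I327 against PDZ3 and N, at G324 against N and C, and at I338 against C, with values in the part on processing. The 3 contrasts share the NC scores.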

How the results depend on the processing

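No paired analysis was possible because values of single cultures are not in the table, and for the same reason no culture could be left out. For D at the 25 named positions, 300 values under 13 other settings kept their direction and their side of the threshold, 8 newly passed, 6 no longer passed and 10 changed sign. For the named differences between constructs, under 10 other settings, 229 were kept, 6 no longer passed and 5 changed sign. Apart from the 2 settings that only enlarge the errors, the cause was not tested.

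Errors multiplied by 2 left 65 single substitutions higher in D, 2645 double substitutions lower and 150 higher, and 11 positions higher. They left 8 positions lower and 6 higher against PDZ3, 10 lower against N, and 12 lower and 6 higher against C. Departures from the sum fell to 23 lower and 370 higher. Of single substitutions, 216 were lower in both assays, 41 in abundance and not in binding, and 42 were higher in binding and 44 in abundance. Errors widened by the spread of nonsense variants left 248 single substitutions lower and 43 higher, 762 doubles lower and 26 higher, and 10 positions higher. They left 3 positions lower and 1 higher against PDZ3, 6 lower and 10 higher against N, and 7 lower and 5 higher against C. Departures fell to 0 lower (80 at an unadjusted p under 0.05 in the normal test) and 40 higher. In that setting 166 single substitutions were lower in both assays, 31 in abundance and not in binding, and 6 were higher in binding and 28 in abundance.

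Residuals from the monotone curve gave 287 single substitutions lower and 629 higher, and 16 positions lower and 40 higher. The sign turned at I316 (0.0630), L349 (0.0994), N326 (0.0519) and S339 (0.0083). The median over substitutions turned I316 (0.0141), L349 (0.0024) and N326 (0.0287). Zero at the synonymous variants turned I316 (0.00047), gave 26 positions higher against C, and left 76 single substitutions higher in binding and 59 in abundance.

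Without scaling the sign turned at I316 (0.0272) and F325 (0.0633). The unscaled split was 3 lower and 39 higher against PDZ3 and 5 lower and 43 higher against N, with I327 at 0.0865 against PDZ3, and I327 at 0.254 and G324 at 0.286 against N. Growth rates gave 25 higher against PDZ3, 8 lower and 36 higher against N, and 7 lower and 34 higher against C, with G324 at 0.0104 and I338 at 0.0046 against C. With the lowest 5 percent of missense variants at -1, 12 positions were lower against N. For doubles with both sums above -1, a setting added after the data were seen and adjusted over those doubles alone, 2109 departures were higher.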
